A study of Mus musculus with 32 samples.

Results

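The genes described here are the protein-coding genes of the proteasome whose symbol in the GENCODE M21 annotation starts with Psma, Psmb, Psmc, Psmd, Psme, Psmf or Psmg followed by a digit, together with Pomp. The rule found 51 of the 54532 genes in the count table. Of these, 50 encode subunits, assembly chaperones, activators or an inhibitor of the proteasome. The other, Psmc3ip, matched by its name only and encodes a partner of the meiotic recombinases. It stays in the counts of members below. RNA came from the striatum of 32 mice at 6 months of age, in 4 groups of 8 named for their genotype, which were wild-type, Msh3-/-, then zQ175 and last zQ175:Msh3-/-. There were 4 males and 4 females a group, apart from zQ175:Msh3-/- with 5 males and 3 females. The zQ175 allele is a knock-in that lengthens the CAG repeat of mouse Htt at its own locus, and Msh3-/- mice lack both working copies of the mismatch repair gene Msh3 through a germline knockout made with CRISPR. The paper states that the cross gave these genotypes as littermates, on a C57BL/6J background. The zQ175 and zQ175:Msh3-/- groups both carry the knock-in allele, and the Msh3-/- and zQ175:Msh3-/- groups both carry the deletion. The study asked whether loss of Msh3 alters the striatal RNA profile of zQ175 mice.

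The proteasome degrades proteins tagged with ubiquitin. Its 20S core is a barrel of alpha rings, which control entry, and beta rings, which hold the proteolytic sites. The 19S cap is built from a base with ATPases that unfold the substrate and a lid that removes ubiquitin. Interferon induces alternative beta subunits (Psmb8, Psmb9 and Psmb10, which replace Psmb5, Psmb6 and Psmb7) and the PA28 activator (Psme1 and Psme2), and the transcription factor NRF1, encoded by Nfe2l1, raises the constitutive subunits together when proteasome activity falls. In Huntington's disease research the proteasome is of interest because it handles soluble huntingtin fragments while aggregates resist it.

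Counts on genes summed to between 12359347 and 25030335 reads per mouse, with group medians between 15903741 and 17957804. Msh3 itself had 22.9 to 27.5 CPM (reads of the gene in 1000000 reads, after TMM scaling) in wild-type mice and 10.4 to 13.6 in Msh3-/- mice, and 22.8 to 27.4 in zQ175 against 11.1 to 14.2 in zQ175:Msh3-/- mice, so that the knockout was seen in every mouse as a lower level, not as absence of reads. The striatal identity of the tissue was checked with 10 markers of spiny projection neurons, all of them detected, whose summed level was 7298 to 8799 TPM (transcripts of the gene in 1000000, normalised for length) in wild-type, 7396 to 9165 in Msh3-/-, 4232 to 5312 in zQ175 and 4268 to 5416 in zQ175:Msh3-/- mice.

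Promoter sequence gives the first context for these genes, and the sites shown were chosen because they match the short core motifs of the regulators named above. RefSeq windows on GRCm38.p6, from 250 bases before to 50 bases after a start site, were matched by symbol for 43 of the 51 genes. The core of the interferon-stimulated response element was searched as GAAANNGAAA on both strands, and was present in the windows of 5 genes, or 11.6% of the 43 genes, against 3.99% of all 27025 genes with a window. The capitals mark the motif on the gene's own strand, and the reverse complement of the motif is shown where the match lies on the other strand.
Psme1, chr14:55578493-55578522, plus strand: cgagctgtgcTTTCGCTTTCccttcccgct
Psmb3, chr11:97703261-97703290, plus strand: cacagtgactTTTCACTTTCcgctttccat
Psmd4, chr3:95042675-95042704, minus strand: ataaccaaccTTTCCATTTCtgtggcgcct
Psmg4, chr13:34162969-34162998, plus strand: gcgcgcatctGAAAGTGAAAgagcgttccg
Psmd9, chr5:123228021-123228050, plus strand: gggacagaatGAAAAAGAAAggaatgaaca
In Psme1 the match began at base 10 after the RefSeq start site and in Psmg4 at base 16, while in Psmb3, Psmd4 and Psmd9 it began 163, 80 and 159 bases before it. The RefSeq start site of Psme1 lies 371 bases downstream of the start of that gene in GENCODE, so that its match lies within the annotated gene. For Psmd9 the distance is 58777 bases, and its window belongs to another start site of the gene. The core of the antioxidant response element, to which NRF1 and its relative NRF2 bind, was searched as TGACNNNGC and was in the windows of 6 genes (Psmb5, Psmb6, Psmc6, Psmd9, Psmd12 and Psme4). That share of 14.0% was the same as the 14.0% of all genes. The sites in the genes of the catalytic subunits beta5 and beta1 lay 47 and 9 bases before the start site.
Psmb5, chr14:54618023-54618052, minus strand: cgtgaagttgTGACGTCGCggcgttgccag
Psmb6, chr11:70525338-70525367, plus strand: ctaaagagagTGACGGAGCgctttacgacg
The core of the gamma-activated site, TTCNNNGAA, was in the windows of 3 genes (Psmb8, Psmd2 and Psmg1; 6.98% against 9.55% of all genes) and the CCAAT box in those of 15 (34.9% against 41.1%). No window of Psme2 or Psmb10 held any of these 4 motifs. These are matches of letters and not measured binding sites.

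The level of each gene was compared between genes on the TPM scale only. The constitutive subunits were abundant in wild-type striatum. The 7 broadly expressed alpha subunits ran from 48.5 TPM for Psma2 to 159 for Psma7, and the 7 constitutive beta subunits from 97.3 for Psmb2 to 204 for Psmb6. Subunits of the 19S base ran from 64.0 TPM for Psmc6 to 222 for Psmc5, and those of the lid from 48.2 for Psmd11 to 129 for Psmd7. The highest and lowest base subunits thus differed 3.47-fold in RNA level. The interferon-inducible beta subunits stood well below the subunits they replace. Psmb10 had 27.2 ± 4.70 TPM (SD, n = 8), Psmb8 5.47 ± 1.39 and Psmb9 2.11 ± 0.689, against 172 ± 7.33 for Psmb7, 160 ± 8.56 for Psmb5 and 204 ± 11.6 for Psmb6.

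Among the activators in wild-type mice, Psme3 (the nuclear PA28 gamma) had 71.9 ± 3.83 TPM, Psme1 44.0 ± 5.42, Psme2 38.2 ± 2.84 and Psme4 (PA200) 18.6 ± 1.39, and the inhibitor gene Psmf1 (PI31) had 21.7 ± 1.45. Within single wild-type mice Psme2 made up 41.4% to 49.8% of the summed TPM of Psme1 and Psme2, so that Psme1 was the higher in each mouse. Pomp, a chaperone of 20S core maturation, had 102 ± 7.46 TPM, above the other 20S assembly chaperones (15.2 to 27.6), and the 19S chaperones Psmd5, Psmd9 and Psmd10 had 21.2 to 22.8. Psma8, the alpha subunit of testis, had 0.394 TPM, Psmb11, the beta subunit of thymus, 0.0842, and Psme2b, a copy of Psme2, 1.05. These 3 genes did not pass the filter on low counts, so that 48 of the 51 genes, among 16610 in all, entered the tests.

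**Figure D1:**
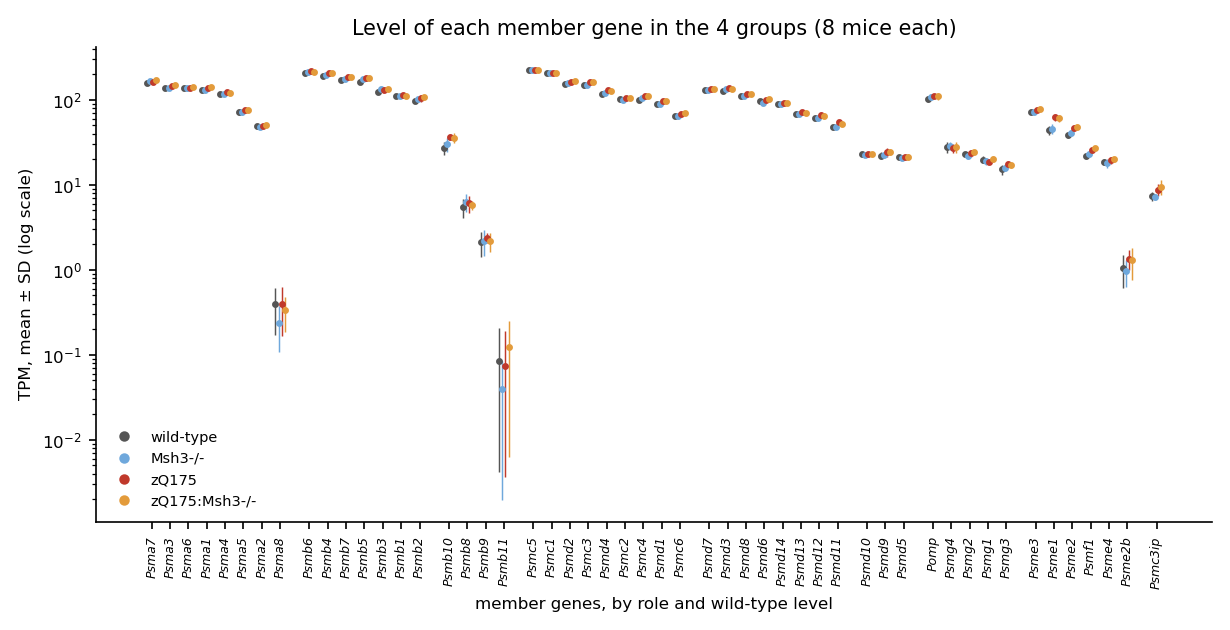
Level of each of the 51 genes in TPM (log axis) as mean ± SD over 8 mice, by role and by wild-type level, with 1 colour for each genotype; the lower bar is cut short where it would reach 0. The constitutive subunits sit between 48.2 and 222 TPM in wild-type mice, and Psmb8, Psmb9, Psmb11, Psma8 and Psme2b lie well below them.

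Between mice of 1 group these genes varied little. The coefficient of variation of CPM, scaled by the trimmed mean of M-values (TMM), in wild-type mice had a median of 5.03% over the 48 genes, against 8.94% over all genes tested. It was 2.44% to 6.71% for the 31 constitutive 20S and 19S subunits that were tested. The widest spread was in the inducible subunits, with 32.8% for Psmb9, 21.2% for Psmb8 and 14.3% for Psmb10, and Psme1 had 11.5%.

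In zQ175 against wild-type mice, the PA28 activator genes Psme1 and Psme2, the inducible catalytic subunit gene Psmb10 and the inhibitor gene Psmf1 rose. By edgeR no member was called lower, and 0 of the 31 constitutive 20S and 19S subunits tested passed the test, with 7 at an unadjusted p under 0.05. Such a p was found for 6063 of all 16610 genes. DESeq2 called 4 members higher and 1 lower, and 1 of these 5 was a constitutive subunit. In bulk tissue, fewer cells of a type and less RNA per cell cannot be told apart. By the quasi-likelihood test of edgeR, 4 of 48 genes had an adjusted p under 0.05, which is 8.33%, against 26.5% of all 16610 genes. All 4 were higher, against 13.0% of all genes called higher and 13.5% called lower. With a change of at least 1.2-fold also required, as the study did, 2 remained (4.17%, against 11.6% of all genes), namely Psme1 and Psmb10. The median log2 fold change was 0.03 over the 48 genes and 0.01 over all genes.

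Psme1 encodes PA28 alpha, which with PA28 beta caps the 20S core and opens its gate without using ubiquitin or ATP. The gene lies on chromosome 14 at 55578123 to 55581529 (GRCm38, plus strand). Its level was 17.3 to 23.8 CPM in wild-type mice, with a median of 20.3, and 24.8 to 31.7 in zQ175 mice, with a median of 28.1. Every zQ175 mouse was above every wild-type mouse, which 6.63% of all genes tested showed in 1 direction or the other. Psme1 was the only member without overlap. The log2 fold change was 0.43 ± 0.069 (SE), or 1.35-fold with a 95% interval of 1.23 to 1.49 (edgeR adjusted p = 7.1e-06; exact permutation p = 0.000155, two-sided and the smallest that 8 mice against 8 can give).

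Psmb10 encodes beta2i, the inducible form of the trypsin-like catalytic subunit. It lies on chromosome 8 at 105935735 to 105938444 (minus strand). Wild-type mice had 9.30 to 13.0 CPM with a median of 11.8, and zQ175 mice 13.0 to 17.3 with a median of 15.2. The groups only touched, since the lowest zQ175 mouse and the highest wild-type mouse were level at 3 digits. The difference on the log2 scale was 0.42 ± 0.096 (1.33-fold, interval 1.17 to 1.53; edgeR adjusted p = 0.00108; exact permutation p = 0.000311).

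Psme2, which encodes PA28 beta, is the neighbour of Psme1: its annotated span (55587441 to 55591113, minus strand) starts 5911 bases beyond the end of Psme1. It had 14.1 to 16.1 CPM in wild-type mice with a median of 14.9 and 15.5 to 20.8 in zQ175 mice with a median of 17.5. The groups overlapped, with all 8 zQ175 mice above the wild-type mean. This was a log2 fold change of 0.22 ± 0.058 (edgeR adjusted p = 0.00386; exact permutation p = 0.00264), which is under 1.2-fold.

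Psmf1, which encodes PI31, a protein that inhibits the 20S core in the test tube and carries proteasomes along axons, had 21.1 to 24.6 CPM in wild-type mice with a median of 22.7 and 22.2 to 27.6 in zQ175 mice with a median of 24.3. The groups overlapped over much of their range. Its log2 fold change was 0.13 ± 0.044 (edgeR adjusted p = 0.0305; exact permutation p = 0.0107), against 0.19 on total counts (edgeR adjusted p = 0.00144) and 0.23 on TPM (limma adjusted p = 0.000359). Without either of 2 wild-type mice (male 4 or female 2) or either of 2 zQ175 mice (male 3 or male 4), the adjusted p was 0.0641 to 0.0833, so that the call for Psmf1 rests on single mice.

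**Figure D2:**
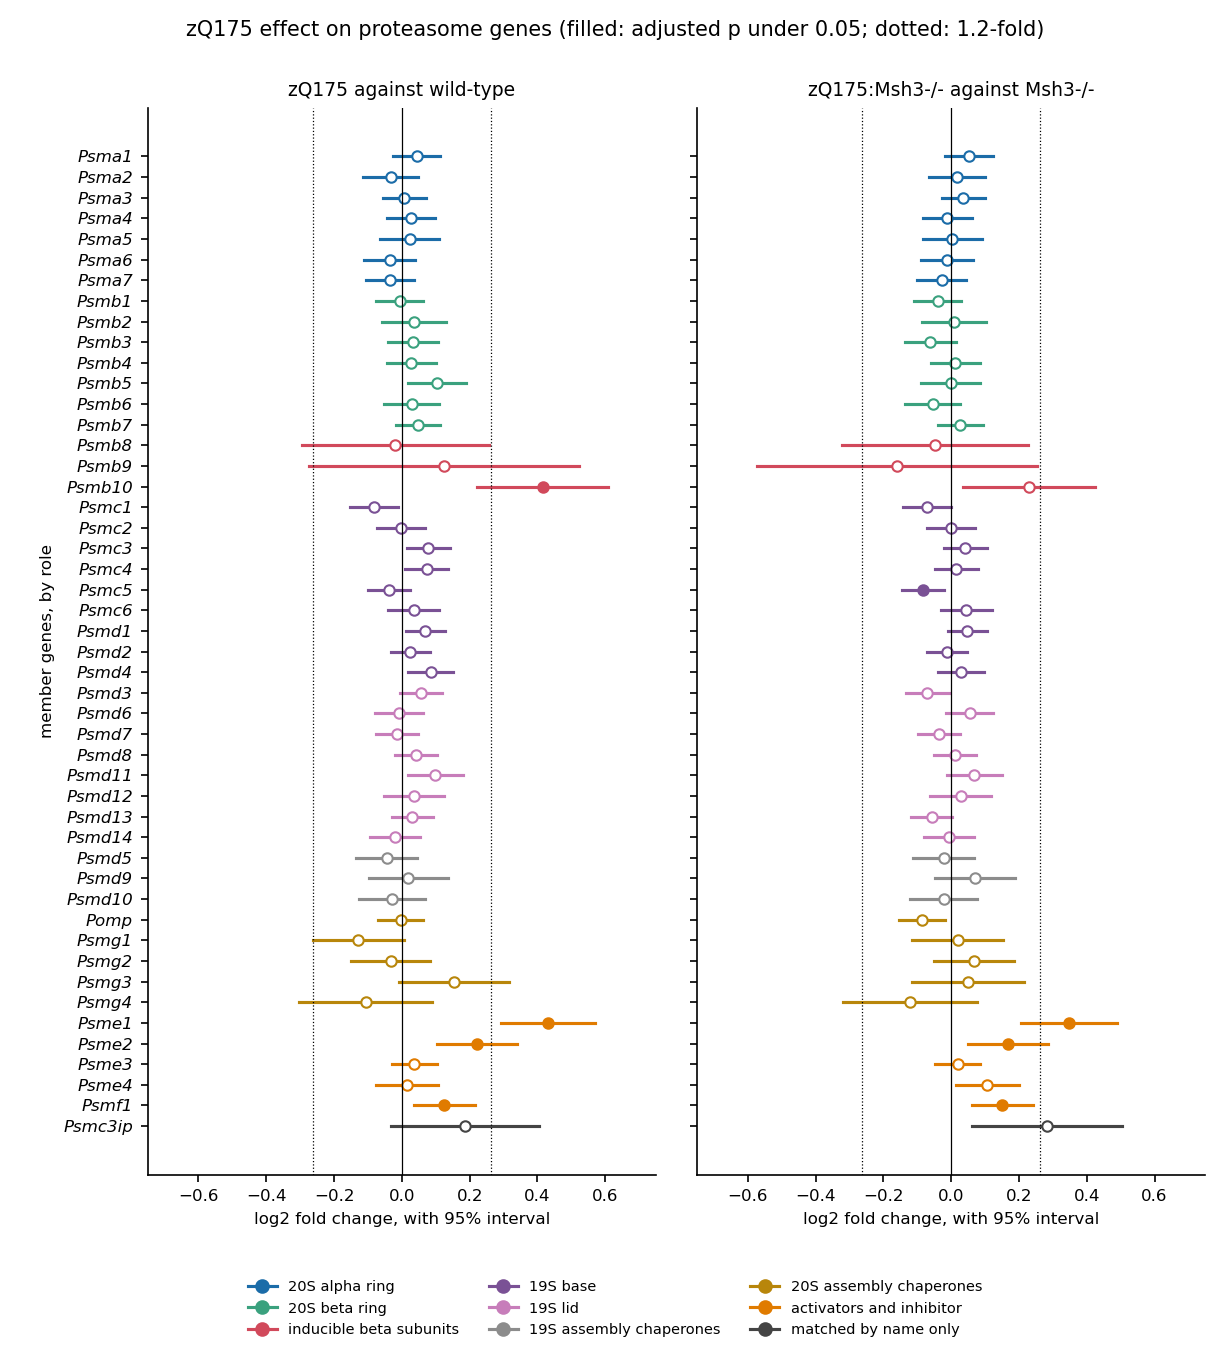
The log2 fold change with its 95% interval for the 48 genes tested, by role, for zQ175 against wild-type (left) and zQ175:Msh3-/- against Msh3-/- (right). Filled points have an edgeR adjusted p under 0.05 and the dotted lines mark a 1.2-fold change; Psme1, Psme2 and Psmf1 are filled in both panels, Psmb10 on the left alone and Psmc5 on the right alone.

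The other inducible subunits gave no such change. Psmb8 (beta5i) had 2.19 to 4.09 CPM in wild-type and 2.20 to 3.57 in zQ175 mice, with a log2 difference of -0.02 and an interval of -0.30 to 0.26 (edgeR adjusted p = 0.940). Psmb9 (beta1i), at 0.731 to 1.83 CPM against 1.11 to 1.76, had a log2 difference of 0.12 with an interval of -0.27 to 0.52 (edgeR adjusted p = 0.700). Both groups overlapped almost wholly for each gene, and at these low counts neither interval lies within a 1.2-fold change. Psmb8 and Psmb9 lie next to the peptide transporter gene Tap1 in the major histocompatibility complex on chromosome 17, whereas Psme1, Psme2 and Psmb10 lie elsewhere.

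The constitutive counterparts showed small differences. Psmb5 (beta5, chymotrypsin-like) had 58.0 to 68.5 CPM in wild-type and 61.4 to 72.3 in zQ175 mice, with a log2 difference of 0.10 ± 0.042 (edgeR adjusted p = 0.0657). Psmb6 (beta1) had a log2 difference of 0.03 ± 0.040 (edgeR adjusted p = 0.651) and Psmb7 (beta2) of 0.05 ± 0.032 (edgeR adjusted p = 0.310). The groups overlapped for all 3 genes. Pomp had 55.2 to 59.7 CPM against 53.8 to 59.4, and a log2 difference of -0.00 ± 0.033 (edgeR adjusted p = 0.948).

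By role, the tested log2 differences in zQ175 mice lay between -0.04 and 0.04 for the 7 alpha subunits, -0.01 and 0.10 for the 7 constitutive beta subunits, -0.08 and 0.09 for the 9 base subunits and -0.02 and 0.10 for the 8 lid subunits. All 31 had a 95% interval within a 1.2-fold change in either direction. Over the 48 genes this held for 40 (83.3%), against 46.6% of all genes tested, which include many with lower counts. The 8 others were Psme1, Psme2, Psmb8, Psmb9, Psmb10, Psmg3, Psmg4 and Psmc3ip. The assembly chaperones of the 20S core spread wider, from -0.13 for Psmg1 to 0.15 for Psmg3, and those of the 19S cap from -0.04 to 0.02, with none called.

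**Figure D3:**
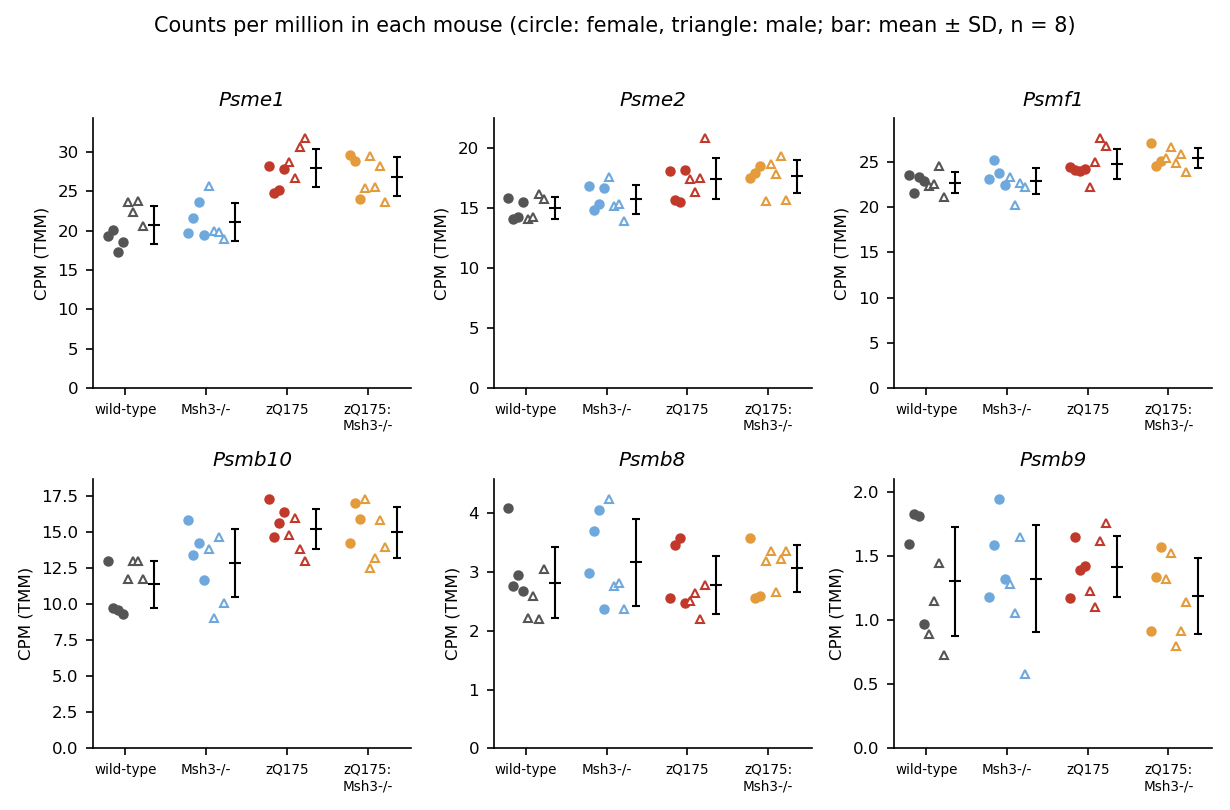
CPM (TMM-scaled) of 6 genes in each of the 32 mice, by genotype, with circles for females and open triangles for males; the bar beside each group is the mean ± SD of 8 mice and each axis starts at 0. For Psme1 the zQ175 mice (24.8 to 31.7 CPM) lie above all wild-type mice (17.3 to 23.8), whereas Psmb8 and Psmb9 overlap between groups.

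The paired genes were compared within each mouse as a share of their summed TPM, a measure added after the values were seen, in 8 exact two-sided permutation tests over 4 gene pairs and the effect of zQ175 with and without Msh3. Psmb10 made up 13.6% ± 1.79 of Psmb7 and Psmb10 in wild-type and 16.5% ± 1.55 in zQ175 mice, a difference of 2.88 points (exact permutation p = 0.00404, adjusted 0.0323). Psme2 made up 46.6% ± 3.17 of Psme1 and Psme2 in wild-type and 42.9% ± 1.30 in zQ175 mice, which is 3.76 points lower (exact permutation p = 0.0104, adjusted 0.0416), since Psme1 rose more than Psme2. The shares of Psmb8 (3.33% against 3.28%) and Psmb9 (1.03% against 1.09%) differed by less than the spread between mice. On the Msh3-/- background none of the 4 shares passed: that of Psmb10 was 1.39 points higher (exact permutation p = 0.195, adjusted 0.312) and that of Psme2 2.91 points lower in zQ175:Msh3-/- mice (exact permutation p = 0.0476, adjusted 0.127).

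These results depend on how libraries are put on 1 scale. The summed reads of the 51 genes were 0.255% to 0.279% of all counts in wild-type and 0.278% to 0.298% in zQ175 mice, while the TMM factors, which correct for a changed make-up of the library, were 0.963 to 0.996 in wild-type and 1.003 to 1.032 in zQ175 mice. Scaled to total counts with no TMM factor, an alternative added after the data were seen, 22 of the 48 genes were called higher and 0 lower, 16 of them constitutive subunits, with a largest log2 difference of 0.17 among those. The median of all genes then also rose, from 0.01 to 0.08, and 35.8% of all genes were called. On TPM values by limma, 18 of 50 members were called higher, 12 of them constitutive subunits. Of all 22274 genes in that fit 21.8% were called, with a median of 0.07. With RLE size factors, which correct as TMM does, the same count of 4 was called. Psme1 and Psmb10 were past both thresholds under each of these scalings, with log2 values of 0.43 to 0.50 and 0.41 to 0.48, and Psme2 passed 1.2-fold on total counts and on TPM as well.

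**Figure D4:**
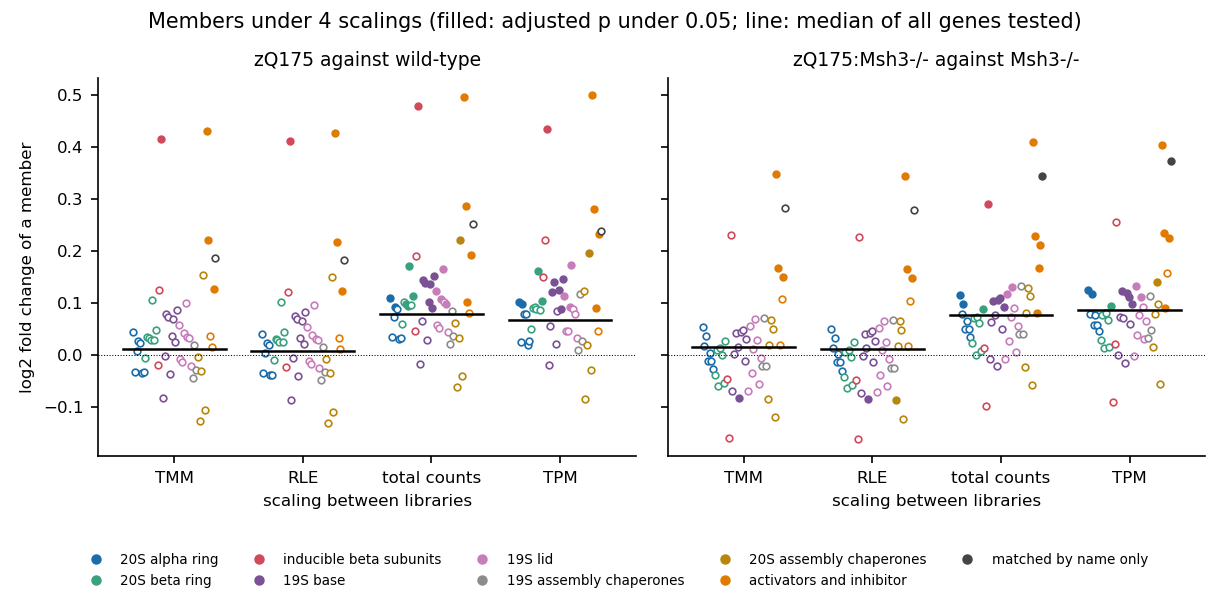
The log2 fold change of the 48 genes under 4 scalings between libraries, for zQ175 against wild-type (left) and zQ175:Msh3-/- against Msh3-/- (right), coloured by role; filled points have an adjusted p under 0.05 and the line is the median of all genes tested. The cloud of members moves up with the line under total counts and TPM (from 0.01 to 0.08 and 0.07 on the left), and Psme1 stays above it in every column.

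On the Msh3-/- background Psme1, Psme2 and Psmf1 rose by the edgeR test, while the other activator genes Psme3 (log2 difference 0.02, adjusted p = 0.728) and Psme4 (0.11, adjusted p = 0.0865) did not pass it. In zQ175:Msh3-/- against Msh3-/- mice, 4 of 48 genes had an edgeR adjusted p under 0.05, or 8.33% against 24.1% of all genes: 3 were higher (6.25%, against 11.8%) and 1 lower (against 12.3%). Psme1 alone was also past 1.2-fold (2.08%, against 10.6%). The median log2 fold change was 0.01 over the 48 genes and 0.01 over all genes. Psme1 had 18.9 to 25.6 CPM in Msh3-/- mice, with a median of 19.9, and 23.7 to 29.6 in zQ175:Msh3-/- mice, with a median of 26.9. The ranges overlapped at their ends. The log2 fold change was 0.35 ± 0.069 (1.27-fold, interval 1.15 to 1.40; edgeR adjusted p = 0.000229; exact permutation p = 0.0014).

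Psme2 had 13.9 to 17.6 CPM in Msh3-/- and 15.6 to 19.3 in zQ175:Msh3-/- mice, with a log2 fold change of 0.17 ± 0.058 (edgeR adjusted p = 0.0327). The groups overlapped. Without any 1 of 9 of these 16 mice, the adjusted p of Psme2 was 0.0508 to 0.0783. Psmf1 had 20.3 to 25.3 against 23.9 to 27.1 CPM and a log2 fold change of 0.15 ± 0.044 (edgeR adjusted p = 0.011), which stayed under 0.05 without any 1 mouse.

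Psmc5, which encodes the base ATPase Rpt6, was the member that fell by edgeR with TMM. It had 120 to 135 CPM in Msh3-/- mice, with a median of 128, and 109 to 128 in zQ175:Msh3-/- mice, with a median of 122. The log2 difference was -0.08 ± 0.031 (edgeR adjusted p = 0.0451), with an interval within a 1.2-fold change. Its call was lost without any 1 of 11 of these 16 mice, and on the TPM scale the log2 difference was -0.02 (limma adjusted p = 0.749). Scaled to total counts it was -0.02 as well and was not called. Psmb10 had 9.07 to 15.9 CPM in Msh3-/- and 12.5 to 17.3 in zQ175:Msh3-/- mice, with a log2 difference of 0.23 ± 0.096 that did not pass the test (edgeR adjusted p = 0.0777). Scaled to total counts it was called, at 0.29 (edgeR adjusted p = 0.0199), and on TPM it was not, at 0.26 (limma adjusted p = 0.0853). The Msh3-/- mice spread over most of the range of the other group.

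The 31 constitutive subunits lay between -0.08 and 0.07 on the log2 scale in zQ175:Msh3-/- against Msh3-/- mice, and all 31 intervals were within 1.2-fold. Over the 48 genes 41 were (85.4%, against 47.8% of all genes). Psmb5, Psmb6 and Psmb7 had log2 differences of -0.00, -0.05 and 0.03, Psmb8 and Psmb9 of -0.05 and -0.16, and Pomp of -0.09 ± 0.033 (edgeR adjusted p = 0.0581). With RLE size factors Pomp was called lower (edgeR adjusted p = 0.0477), and on TPM its log2 difference was 0.01 (limma adjusted p = 0.884). Scaled to total counts, 16 of the 48 were called, all higher, beside 32.2% of all genes, whose median was 0.08. On TPM 15 of 50 were called, all higher, beside 21.8% of all genes, whose median was 0.09.

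Compared with wild-type mice, which also serve as the controls of zQ175 mice above, the zQ175:Msh3-/- group again had 4 of 48 members called, all higher (8.33%, against 26.9% of all genes called and 13.3% called higher), and 2 past both thresholds (4.17%, against 12%). Psme1 had a log2 fold change of 0.37 ± 0.069 (edgeR adjusted p = 8.17e-05) and Psmb10 of 0.40 ± 0.096 (edgeR adjusted p = 0.00184). Psme2 had 0.23 ± 0.058 (edgeR adjusted p = 0.00229) and Psmf1 0.16 ± 0.044 (edgeR adjusted p = 0.00524). On TPM, Psmf1, Psme2 and Psmc3ip were also past both thresholds in this comparison. In each of the 4 genes called with TMM, all 8 zQ175:Msh3-/- mice were above the wild-type mean. This is no separate support, since the same comparison picked these genes.

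Loss of Msh3 changed none of the 48 genes by the same test. In zQ175:Msh3-/- against zQ175 mice, 0 were called by edgeR, and 0 by DESeq2 and limma, where edgeR called 1 of all genes (0.00602%), Msh3 itself. At an unadjusted p under 0.05 there were 2 (Psma7 at a log2 difference of 0.07 and Psmd13 at -0.08, named for this reason after their values were seen), while 3.70% of all genes had such a p. The log2 difference of Psme1 was -0.06 with an interval of -0.20 to 0.08, that of Psme2 was 0.01 with an interval of -0.10 to 0.13, that of Psmf1 0.04 with -0.05 to 0.13 and that of Psmb10 -0.02 with -0.21 to 0.17. In these mice 45 of 48 intervals lay within 1.2-fold (93.8%, against 63.6% of all genes). The intervals of Psmb8, at -0.13 to 0.42, and Psmb9, at -0.65 to 0.16, were the widest.

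In Msh3-/- against wild-type mice, 0 members were called by edgeR, DESeq2 or limma, and edgeR again called Msh3 alone among all genes (0.00602%). An unadjusted p under 0.05 was found for 3 (Psmb3 at a log2 difference of 0.09, Psmd3 at 0.08 and Psmb5 at 0.11, likewise named after their values were seen), and for 5.09% of all genes. Psme1 differed by 0.02 on the log2 scale, with an interval of -0.12 to 0.16, and Psmb10 by 0.17 with an interval of -0.03 to 0.36. Of the 48 intervals, 45 lay within 1.2-fold (93.8%, against 63.0%).

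**Figure D5:**
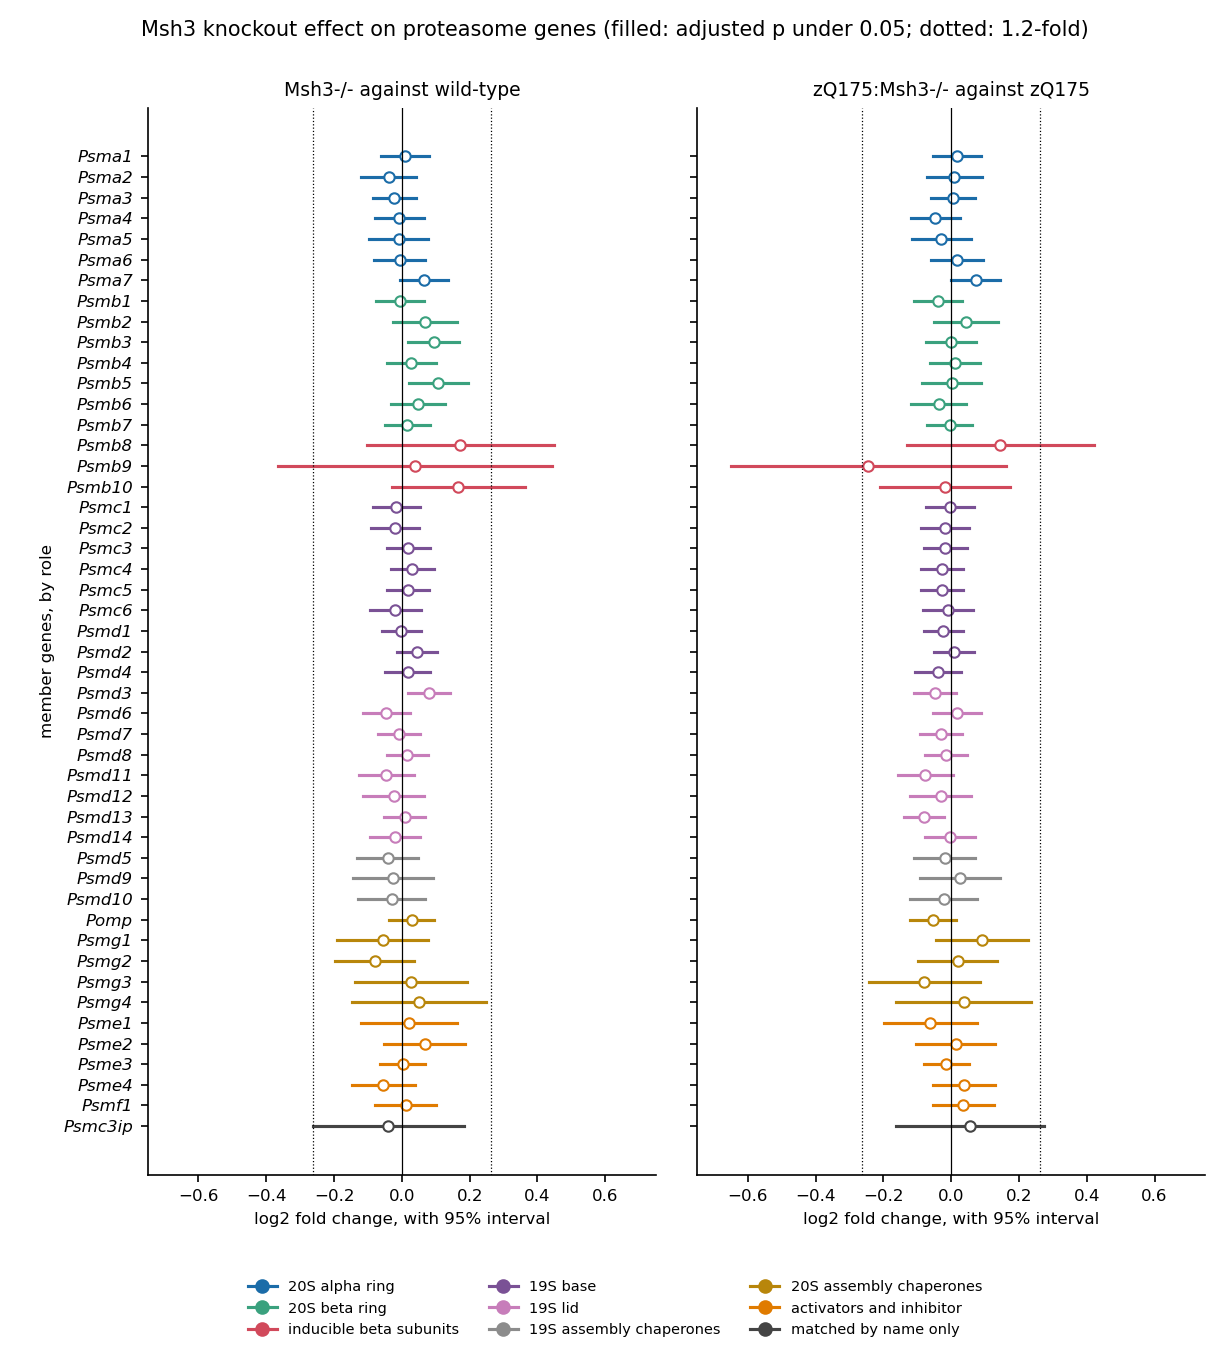
The log2 fold change with its 95% interval for the 48 genes tested, by role, for Msh3-/- against wild-type (left) and zQ175:Msh3-/- against zQ175 (right), on the same axis as the plot of the zQ175 effect. No point is filled, since no edgeR adjusted p is under 0.05, and in each panel 45 of 48 intervals lie within the dotted 1.2-fold lines.

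The interaction, which asks whether the zQ175 effect differs with and without Msh3, was called for 0 members by edgeR, DESeq2 and limma, and edgeR called it for 0 of 16610 genes (0%). At an unadjusted p under 0.05 it was found for 2 members, both lid subunits (Psmd3 at -0.13 and Psmd13 at -0.09 on the log2 scale, named after their values were seen), and for 4.44% of all genes. For Psme1 the zQ175 effect differed by -0.08 with an interval of -0.28 to 0.11, and for Psmb10 by -0.19 with an interval of -0.46 to 0.09. The call of Psmb10 on 1 Msh3 background and not on the other is therefore not shown to be a difference between them.

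The effect of sex, read after the data were seen from the fit with sex as a term, was called for 0 of 48 members by edgeR, against 0.313% of all genes. An unadjusted p under 0.05 was found for 3 members and for 1546 of all 16610 genes. In wild-type mice all 4 females (17.25 to 20.04 CPM) were below all 4 males (20.5 to 23.8) in Psme1. How many of all genes did so was not counted. In the other groups the sexes overlapped, with 19.4 to 23.7 CPM in female and 18.9 to 25.6 in male Msh3-/- mice. Over the 17 males and 15 females of all groups the log2 difference of Psme1 was 0.09 ± 0.047 (edgeR adjusted p = 0.578). With sex in the model, the number of called members in each comparison of genotypes was the same.

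Of 11 other proteins that bind the proteasome, such as deubiquitinases and the ubiquitin receptor Adrm1, 2 rose (Uchl5 by 0.15 and Zfand2a by 0.13 on the log2 scale) and Ecpas fell by 0.09 in zQ175 against wild-type mice. The 3 called of 11 stand beside 26.5% of all genes called. None reached 1.2-fold, and their median was 0.01. Of 8 regulators of proteasome genes, Vcp rose by 0.11 and Nfe2l1 fell by 0.14, which is 2 of 8 beside the same 26.5%, with a median of -0.03. Nfe2l1, the gene of NRF1, had 347 to 383 CPM in wild-type and 324 to 343 in zQ175 mice (edgeR adjusted p = 0.000164). These groups did not overlap, which 6.63% of all genes tested showed. The level of Nfe2l1 was 361 to 405 in Msh3-/- and 310 to 349 in zQ175:Msh3-/- mice, and it fell by 0.15 (edgeR adjusted p = 0.000117). On the TPM scale it had 202 ± 8.08 TPM in wild-type and 190 ± 5.85 in zQ175 mice.

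Of 12 genes of ubiquitin, its activation and its shuttle factors, 2 rose in zQ175 mice (Uba1, the main ubiquitin-activating enzyme, by 0.17 and Nploc4 by 0.10) and 2 fell, which is 4 of 12 beside 26.5% of all genes, and their median was -0.03. Ubqln4, a shuttle factor, had 159 to 173 CPM in wild-type and 128 to 144 in zQ175 mice, without overlap, as did 6.63% of all genes tested. Ubqln4 fell by 0.27 (edgeR adjusted p = 2.59e-07) and was the 1 gene of these lists past both thresholds. On the Msh3-/- background, where 24.1% of all genes were called, 1 of the 11 bound proteins was called (Sem1 at -0.21). So were 2 of the 8 regulators (Nfe2l1 and Mafg at -0.15 each). Of the 12 ubiquitin genes 1 was called higher and 3 lower, among them Uba1 at 0.16, Ubqln4 at -0.24 and Rps27a at -0.13. Apart from Nfe2l1 and Ubqln4, these genes were named after their values were seen.

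Markers of interferon signalling and antigen presentation were read beside the rise of Psme1, Psme2 and Psmb10. Of 14 such genes, all detected, 0 were called by edgeR in zQ175 against wild-type mice, beside 26.5% of all genes. At an unadjusted p under 0.05 there was 1, and the median log2 difference was 0.04. Of the 14 intervals 4 lay within 1.2-fold, so larger changes are not excluded for the others. Their summed level was 256 to 327 TPM in wild-type and 277 to 412 in zQ175 mice. On the Msh3-/- background the median of the 14 was -0.16 and 1, Tap2, was called, lower by 0.23, beside 24.1% of all genes called. In that comparison 2 of the 14 intervals lay within 1.2-fold. In Msh3-/- against wild-type mice 0 of the 14 were called by edgeR, with 1 at an unadjusted p under 0.05. All 14 log2 differences were above 0, with a median of 0.18, and 1 interval lay within 1.2-fold. In zQ175:Msh3-/- against wild-type mice 12 of 14 were above 0, with a median of 0.08. In the latter 1 was called higher, beside 13.3% of all genes, and 4 intervals lay within 1.2-fold. The summed level of the 14 was 257 to 391.8 TPM in Msh3-/- and 271 to 386 in zQ175:Msh3-/- mice.

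Marker lists of cell types were counted beside the share of all genes called lower, 13.5% in zQ175 against wild-type mice and 12.3% on the Msh3-/- background. In zQ175 against wild-type mice 9 of 10 markers of spiny projection neurons fell, with a median of -0.81, as did 4 of 5 endothelial, 3 of 6 astrocyte, 3 of 10 microglial, 1 of 6 oligodendrocyte and 1 of 6 pan-neuronal markers, and none of these lists had a member that rose. On the Msh3-/- background 9 of 10, 1 of 5, 3 of 6, 6 of 10, 1 of 6 and 2 of 6 fell. No marker was at 0 as a group mean. The summed microglial level was 532 to 593 TPM in wild-type, 534 to 603 in Msh3-/-, 516 to 572 in zQ175 and 483 to 558 in zQ175:Msh3-/- mice, and the endothelial level 100 to 134, 86.8 to 140, 79.8 to 112 and 84.3 to 113. The astrocyte level was 1060 to 1161, 1046 to 1132, 968 to 1076 and 981 to 1113, the oligodendrocyte level 8573 to 10302, 8815 to 10912, 7112 to 11546 and 7159 to 12781, and the pan-neuronal level 3005 to 3361, 3101 to 3589, 3015 to 3524 and 3101 to 3746. The part of these lists in the changes of Psme1, Psme2, Psmb10 and Psmf1 was not tested.

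Some members share sequence or position with other genes. Psme2b holds 52.0% of its 100-base transcript windows in common with Psme2, which shares 18.4% of its own, so reads of these copies may be split between them. Psme2b had 0.192 to 0.712 CPM in wild-type and 0.294 to 0.727 in zQ175 mice, far below Psme2. More than 20% of the windows were shared with other genes for Psma5, Psmb5 and Psmd9. Psmb10 shared none. Psme1 overlaps Emc9 on the opposite strand, and since whether counting used strand is not given in the sources used here, reads in the overlap cannot be assigned with certainty. Emc9 had a log2 difference of 0.01 ± 0.072 in zQ175 against wild-type mice (edgeR adjusted p = 0.920) and of 0.03 ± 0.072 on the Msh3-/- background.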

How the data were processed

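The authors sequenced polyA-selected striatal RNA of 32 mice as paired reads of 150 bases and deposited raw counts per gene, on GRCm38.p6 per the labels; aligner, counter, strand setting and annotation are not given in the sources used here. The authors also deposited length-normalised values named FPKM, whose columns each sum to 1000000 and which were therefore treated as TPM. No column was left out. Counts were fitted by edgeR 4.0.16 in R 4.3.3 (TMM, filterByExpr, robust quasi-likelihood, 1 model of the 4 genotypes, Benjamini-Hochberg over 16610 genes). A call required an adjusted p under 0.05, and counts with a fold change of at least 1.2 stand beside it. Levels in CPM use the same factors. Single genes were also compared by exact permutation over 12870 arrangements.

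Alternatives were DESeq2 1.42.0 and limma 3.58.1 on TPM, logged after adding 0.1 or 1, for genes averaging 0.1 TPM or more or for all genes, RLE, other filters (none, or 10 counts in every mouse), sex, a replicate block, fewer groups, no fold threshold, each mouse left out, and, added later, total counts. TPM fold changes include the pseudocount and understate low genes. Named were members past a threshold, the catalytic subunits with their inducible forms, Psme1, Psme2, Pomp, Nfe2l1, up to 8 pathway genes past both thresholds and at most 2 markers a list. Psmc3ip, matched by name only, was named as well. The members and lists were chosen with earlier results of these data known. The scripts were tested on simulated data with known changes. At the lowest depth 3 reads are 2.43e-05% of the counts, a floor that covers counting error only. The labels do not say that mice of a group came from separate litters, so p-values measure the spread between these mice. Values of some single genes on the pathway and marker lists are not reported here.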

Additional observations from a re-analysis of the deposited data

Results flagged for a closer look

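In 44 groups of 8 mice (11 named genes in 4 genotypes), a mouse far from the other 7 by Dixon's ratio was found in 2, where chance gives about 2.2. Psmc5 in wild-type mice had a ratio of 0.567: female 4 had 115 CPM and the others 124 to 131. Psmb5 in zQ175:Msh3-/- mice had a ratio of 0.544: male 4 had 58.5 CPM and the others 65.0 to 71.1.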

How the results depend on the processing

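The numbers of members called in zQ175 against wild-type, zQ175:Msh3-/- against Msh3-/- and zQ175:Msh3-/- against wild-type depended on the scaling. With an adjusted p under 0.05 they were 4, 4 and 4 by edgeR with TMM, and 18, 15 and 21 by limma on log2(TPM + 0.1), the same on log2(TPM + 1), and 16, 12 and 21 with no filter on TPM. Of all genes tested, 26.5%, 24.1% and 26.9% were called with TMM. The shares were 21.8%, 21.8% and 23.8% on log2(TPM + 0.1), and 13.4%, 13.4% and 14.6% with no filter on TPM. Scaled to total counts, chosen after seeing the data, the numbers of members called were 22, 16 and 23, beside 35.8%, 32.2% and 35.6% of all genes. Past 1.2-fold as well, the members were 2, 1 and 2 with TMM and 3, 2 and 5 on TPM under each setting, and 3, 3 and 4 on total counts. Psmc3ip, matched by name only, was among these on TPM and on total counts in zQ175:Msh3-/- against Msh3-/- and against wild-type. Against Msh3-/- mice its log2 difference was 0.37 on TPM (limma adjusted p = 0.00936) and 0.345 on total counts (edgeR adjusted p = 0.0142). With no fold threshold the counts of TMM become 4, 4 and 4. With no filter on low counts, 2 members were called in zQ175:Msh3-/- against Msh3-/-. In the comparisons of Msh3 loss and in the interaction, 0 members were called under every setting. Psme1, and Psmb10 where called, kept their calls under every setting and without any 1 mouse.

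The replicate numbers do not pair the mice: over 45 pairs of the same sex and number the correlation of deviations was -0.147 to 0.333 with a median of 0.0509, and 14 were over 0.1, against a median of 0.0578 for other numbers. With a replicate block of sex and number, 6 members were called in zQ175 against wild-type and 2 were past both thresholds, 4 and 1 in zQ175:Msh3-/- against Msh3-/-, 5 and 3 in zQ175:Msh3-/- against wild-type, and 0 for Msh3 loss and the interaction. The block changed no call and no direction of Psme1, Psme2, Psmb10, Psmf1 or Psmc5 where they were called without it.

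Without 1 mouse at a time, 3 to 9 members had an adjusted p under 0.05 in zQ175 against wild-type (7 without wild-type male 1 or zQ175 female 4, 9 without wild-type male 2) and 2 were past both thresholds. In zQ175:Msh3-/- against Msh3-/- 2 to 6 were called (2 without Msh3-/- male 2, male 4, female 2 or female 3, or zQ175:Msh3-/- male 4), and 1 to 2 were past both thresholds, with 2 in the fit without Msh3-/- female 1, zQ175 male 4 or zQ175:Msh3-/- male 1, male 2 or male 3. In zQ175:Msh3-/- against wild-type the counts were 4 to 6 and 2 to 3. In zQ175:Msh3-/- against Msh3-/- the call of Psme2 was lost without any of Msh3-/- male 2, male 3, male 4, female 2 or female 3 or zQ175:Msh3-/- male 2, male 4, female 2 or female 3 (adjusted p up to 0.0783), and that of Psmc5 without 11 mice (up to 0.121). With no filter on low counts, Psmf1 in zQ175 against wild-type (adjusted p = 0.0916) was not called. In zQ175:Msh3-/- against Msh3-/- neither were Psme2 (adjusted p = 0.0803) and Psmc5 (adjusted p = 0.0972). Psmc5 was also not called when only the groups of the comparison were fitted (adjusted p = 0.0793). In zQ175 against wild-type that fit called 6 members, all higher and 2 of them constitutive subunits, beside 26.8% of all genes. The cause of these changes was not tested. Low counts limit Psmb8 and Psmb9, whose intervals were the widest.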
